A study of Mus musculus with 13 samples.

Results

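Late ER stress, 5 and 8 h of thapsigargin (Tg), was compared with early ER stress, 1 and 2 h, in mouse embryonic fibroblasts (MEFs) that lack PERK. The comparison took 4 of the 13 ribosome footprint libraries, 2 on each side, and 10432 of 22406 genes. These were the genes whose mean over the 10 MEF libraries was at least 2 TPM (the share of a library's footprints, corrected for the length of the coding sequence and scaled to a fixed total). The 4 libraries shared the genotype PERK −/− and a dose of 1 μM Tg and differed in time, with 1 library at each of 1, 2, 5 and 8 h. An untreated library of PERK −/− MEFs took no part in the comparison and is given beside some results. The 4 libraries of WT MEFs at the same dose and times entered the difference between the genotypes. Whether the PERK −/− MEFs were 1 line or clone is not given in the sources used here. The comparison asks which genes differed between late and early Tg without PERK, and not which differed from untreated cells.

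Tg blocks the pumps that refill the ER with calcium, so that proteins of the ER fold badly and 3 sensors are set off. PERK phosphorylates eIF2α, which lowers translation at large and favours that of Atf4, whose product turns on amino acid and stress genes such as Ddit3 (CHOP). IRE1 splices the mRNA of Xbp1, and ATF6 is cut in the Golgi. Both arms give transcription factors that raise ER chaperones, folding enzymes and the machinery that degrades misfolded ER proteins. Many of their targets hold the ER stress response element, ERSE, close to the start of transcription. In cells without PERK the latter arms and other eIF2α kinases remain, and the early stop of translation is lost.

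The 4 libraries held between 7446112 and 14799515 expected counts. The 5 h library listed 121 of the analysed genes at 0, against 24 to 34 in the other 3 libraries, and genes listed at 0 there are named with their values. The 10 fibroblast markers all passed the limit on TPM and summed to between 4600.0 and 5890 TPM in the 4 libraries. Of the markers of other cells, 2 of 5 epithelial, 1 of 4 endothelial, 1 of 5 blood and 1 of 4 muscle genes passed, with sums of at most 44.1, 5.14, 4.80 and 11.7 TPM, and Pecam1, Ptprc, Adgre1, Lyz2, Myod1 and Myog were at 0. Eif2ak3, which encodes PERK (chr6:70844515-70905245, GRCm38), still had 74 counts in untreated PERK −/− MEFs and 90, 113, 106 and 142 counts at 1, 2, 5 and 8 h. This is 10.6, 9.18, 7.87, 12.8 and 17.6 CPM after TMM scaling, against 22.5, 14.9, 19.2, 33.3 and 32.3 in WT MEFs. In TPM it had 11.2, 7.32, 5.21, 14.9 and 17.2, against 6.03, 8.49, 6.2, 14.0 and 15.7 in WT MEFs. So CPM and TPM order the genotypes differently in the untreated, 5 h and 8 h libraries. The gene table does not show which exons these footprints cover, and the late and early levels of Eif2ak3 did not differ past the threshold (log2 difference 0.84 ± 0.34, adjusted p = 0.133).

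Of the 10432 genes, 1224 (11.7%) passed edgeR's quasi-likelihood test at a Benjamini-Hochberg adjusted p under 0.05. They were 619 genes higher late (5.93%) and 605 lower late (5.80%). The counts given for lists below are to be read against these shares. All log2 differences below are late minus early with their standard errors from this fit, and rose and fell are used of genes that passed it. The median over all genes was 0.024, over the genes that rose 0.97 and over those that fell −0.84. In 618 of the genes that rose both late libraries lay above both early ones in TPM, and in 604 of those that fell both lay below. Over all genes 40.1% and 19.6% had no overlap in these directions. Scaled by library totals in place of TMM factors, the counts were 837 higher and 411 lower, as this scaling moved the median of all genes to 0.136. TPM values share this shift (median 0.131 with values under 4 raised to 4), so changes in TPM are to be read against it. By TPM alone with that floor, 619 genes (5.93%) lay at least 2-fold higher late and 147 (1.41%) at least 2-fold lower, of which 355 and 103 passed the test. The libraries of a side are neighbouring times and not replicates, so the test sets the change against the change within a side as well as library noise, and an exact permutation of 2 against 2 libraries could not reach 0.05. In bulk footprints, more ribosomes on a gene, more of its mRNA and more cells that express it cannot be told apart.

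**Figure D1:**
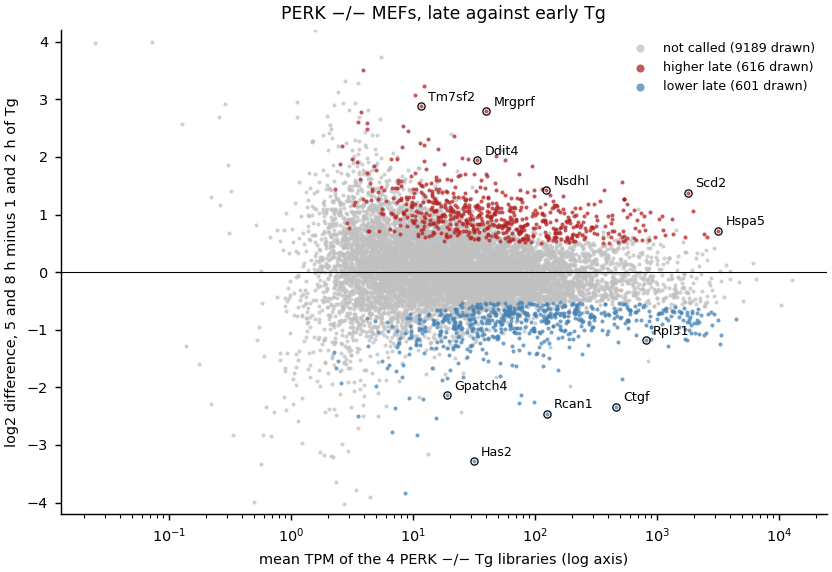
Each point is a gene of PERK −/− MEFs, with its mean TPM over the 4 Tg libraries on the log x axis and its log2 difference, late minus early, on the y axis. The 616 drawn genes that rose and 601 that fell lie over nearly the whole range of levels, and 26 genes lie outside the y axis.

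Part of the genes of ER folding rose and none fell. Of 27 ER chaperones and cochaperones 10 rose and 0 fell, and the median of the list was 0.44. Without the 1, 2, 5 or 8 h library the number that rose was 3, 4, 18 and 9. Hspa5, which encodes BiP, the main ER chaperone, had 1975 and 2515 TPM at 1 and 2 h and 3890 and 4376 TPM at 5 and 8 h (log2 difference 0.72 ± 0.18, adjusted p = 0.0239). Sdf2l1, a BiP partner, went from 41.3 and 57.3 TPM to 145 and 153 TPM (1.43 ± 0.20, adjusted p = 0.00301). Creld2, a secreted ER stress protein, had 112 and 158 TPM early and 296 and 304 TPM late (0.99 ± 0.19, adjusted p = 0.0104). In these 3 genes both late libraries lay above both early ones, the untreated library lay at or below the 2 h library, and the 5 and 8 h libraries were close to each other. Fkbp11, a prolyl isomerase of the ER, and Creld1 rose by 1.18 ± 0.17 and 1.14 ± 0.25. Fkbp14, another ER prolyl isomerase, had 24.2, 29.4, 39.9 and 78.5 TPM and missed the threshold (0.97 ± 0.31, adjusted p = 0.0635). The cochaperone Dnajc3 (p58IPK) had 96.6, 122, 150 and 182 TPM and missed it too (0.44 ± 0.18, adjusted p = 0.124). The same list had a median of 0.39 in WT MEFs, where Hspa5 reached 7253 and 7149 TPM late.

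Of 22 disulfide isomerases and oxidases, the enzymes that make and shuffle disulfide bonds in the ER, 6 rose and 0 fell (median 0.35). The number that rose was 1, 2, 10 and 8 without the 1, 2, 5 and 8 h library, and 2 fell in the last case. Ero1lb, an oxidase that feeds oxidizing power to the isomerases, had the widest change of the list, from 4.56 and 9.13 TPM to 22.1 and 26.6 TPM (1.65 ± 0.34, adjusted p = 0.0146). Tmx2, a thioredoxin-like membrane protein, had 77.5, 85.0, 158 and 233 TPM (1.12 ± 0.18, adjusted p = 0.00498). The isomerases Pdia6 and Pdia4, of which Pdia6 had 810 and 872 TPM early and 1310 and 1641 TPM late, rose by 0.65 ± 0.16 and 0.62 ± 0.16.

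**Figure D2:**
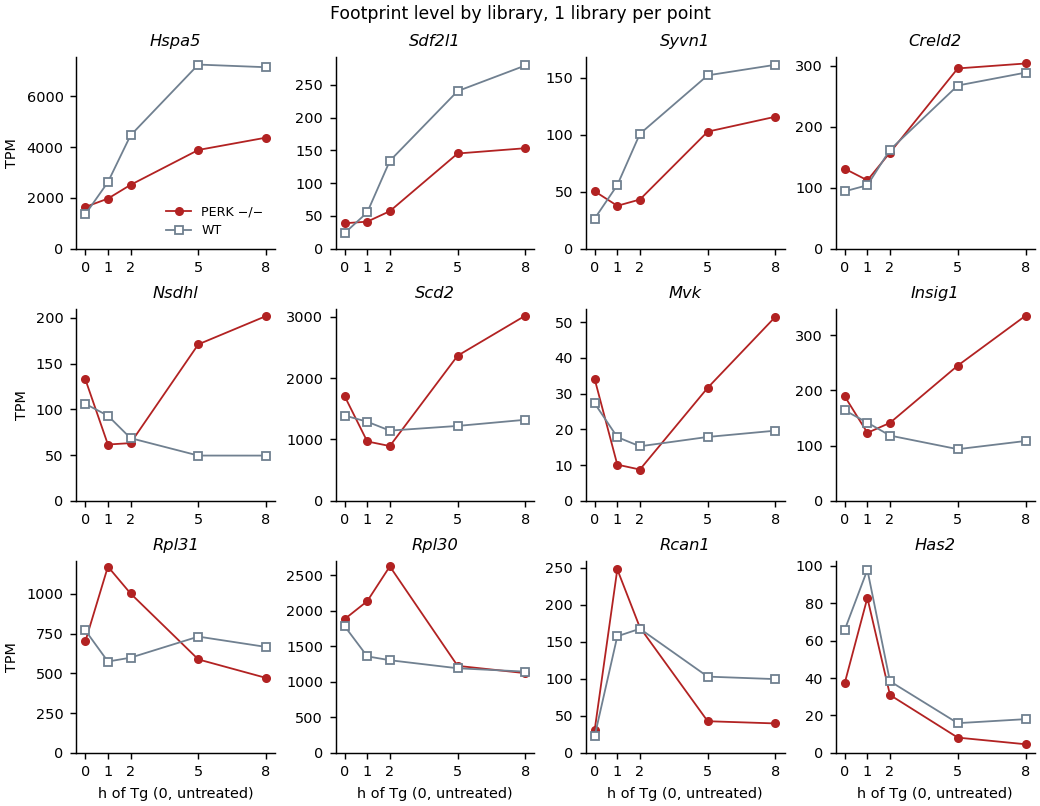
TPM of 12 genes by hours of Tg on a linear time axis, with PERK −/− MEFs as filled circles, WT MEFs as open squares, untreated cells at 0 and 1 library per point. In PERK −/− MEFs, Hspa5, Sdf2l1, Syvn1 and Creld2 climb to 5 and 8 h, the sterol genes Nsdhl, Scd2, Mvk and Insig1 dip below untreated cells at 1 and 2 h and exceed them at 8 h, and Rpl31, Rpl30, Rcan1 and Has2 end below their early levels.

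The 5 genes of ER folding and degradation that rose and hold an ERSE in the 300 bases around their start (250 before to 50 after, RefSeq, GRCm38.p6) were Hspa5, Creld2, Pdia6, Syvn1 and Ero1lb. The stretch that holds it is shown for these genes, which were picked because they rose. Each line is the plus strand, 5′ to 3′, with the element in capitals, which reads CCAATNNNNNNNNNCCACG or, in Creld2 and Ero1lb, its reverse complement.
Hspa5, chr2:34772005-34772063: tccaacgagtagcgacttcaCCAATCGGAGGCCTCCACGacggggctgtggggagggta
Creld2, chr15:88819500-88819558: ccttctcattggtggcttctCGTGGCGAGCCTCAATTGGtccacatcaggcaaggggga
Pdia6, chr12:17266471-17266529: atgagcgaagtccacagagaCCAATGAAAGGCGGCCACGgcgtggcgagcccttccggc
Syvn1, chr19:6046512-6046570: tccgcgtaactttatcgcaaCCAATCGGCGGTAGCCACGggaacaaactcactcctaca
Ero1lb, chr13:12565662-12565720: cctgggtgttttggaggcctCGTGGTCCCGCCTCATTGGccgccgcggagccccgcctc

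Of the 8417 analysed genes with a promoter sequence, 16 (0.19%) held this ERSE on either strand. They included 5 of 494 genes that rose (1.01%), the 5 shown, and 0 of 477 that fell. The other 11 did not pass the test, and Hsp90b1, Calr, Canx, Dnajc3, Alg12 and Derl3 among them are ER genes. ERSE-II (ATTGGNCCACG) was found in 8 genes (0.095%), in 2 of the 494 that rose (0.405%) and 1 of the 477 that fell (0.21%). The core of the XBP1-bound UPR element (TGACGTGG) was found in 93 (1.11%), in 10 of the 494 (2.02%) and 5 of the 477 (1.05%). The element read by ATF4 with C/EBP partners (TGATGCAA) was in 54 (0.642%), in 3 of the 494 (0.607%) and 3 of the 477 (0.629%). All were searched on both strands, and a match in this window is a description of the letters only.

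The machinery of ER-associated degradation (ERAD), which takes misfolded proteins out of the ER, had 30 measured members, of which 9 rose and 0 fell (median 0.33). The number that rose was 4, 5, 10 and 13 without the 1, 2, 5 and 8 h library. Syvn1, the ubiquitin ligase HRD1 at the centre of ERAD, had 37.7 and 43.2 TPM early and 103 and 116 TPM late (1.28 ± 0.16, adjusted p = 0.00208). Vimp, a membrane anchor of the ERAD complex, had 132, 141, 283 and 379 TPM (1.12 ± 0.17, adjusted p = 0.00335). In both genes the late libraries lay far above the early ones, and the untreated library, at 50.5 and 141 TPM, lay near the early side. Edem2, which trims mannose from misfolded glycoproteins, the ligase Rnf5 and the channel protein Derl1 rose by 1.22 ± 0.26, 1.15 ± 0.28 and 0.90 ± 0.16. Herpud1, an ERAD scaffold, had 53.4, 80.8, 96.7 and 85.8 TPM and did not pass the test (0.34 ± 0.21, adjusted p = 0.320), with 462 to 535 TPM from 2 h in WT MEFs.

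Of 35 measured genes of the translocon and of N-glycosylation, which bring new chains into the ER and attach their sugars, 13 rose and 0 fell (median 0.49). Sec61a1, the pore of the translocon, had 400.1 and 314 TPM early and 663 and 887 TPM late (0.96 ± 0.18, adjusted p = 0.00815). Srprb, a subunit of the receptor for the signal recognition particle, had 104, 98.7, 202 and 282 TPM (1.09 ± 0.17, adjusted p = 0.00403). The oligosaccharyltransferase subunits Dad1 and Krtcap2 and the translocating chain protein Tram1 rose by 0.92 ± 0.17, 0.91 ± 0.20 and 0.80 ± 0.17. The number that rose was 5, 2, 20 and 15 without the 1, 2, 5 and 8 h library, and 1 fell in each of the latter cases. In all 5 genes named the 8 h library was the highest and the 2 h library the lowest of the 4.

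Transport between the ER and the Golgi held a like share of genes that rose. Of 44 genes of COPII and COPI transport, the coats that carry cargo out of the ER and back to it, 13 rose and 0 fell (median 0.35), and 8, 5, 22 and 16 rose without the 1, 2, 5 and 8 h library. Kdelr2, the receptor that returns ER chaperones from the Golgi, had 967 and 753 TPM early and 1558 and 2073 TPM late (0.92 ± 0.18, adjusted p = 0.00985). Surf4, a cargo receptor, had 536, 459, 934 and 1211 TPM (0.97 ± 0.17, adjusted p = 0.00675). The COPII coat subunit Sec24d, the COPI regulator Arfgap3 and the fusion protein Stx5a rose by 0.98 ± 0.16, 1.03 ± 0.22 and 0.93 ± 0.18.

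Among the sensors themselves few genes passed. Of 15 UPR sensors and factors 3 rose and 0 fell (median 0.30), and the number that rose was 2, 2, 5 and 2 without the 1, 2, 5 and 8 h library. Wfs1, an ER membrane protein of calcium balance, had 9.42 and 6.80 TPM early and 22.9 and 26.1 TPM late (1.45 ± 0.21, adjusted p = 0.00311). Creb3l2 and Creb3, membrane-bound transcription factors of the ATF6 kind, rose by 1.18 ± 0.17 and 0.59 ± 0.17. Xbp1 had 69.5, 76.7, 97.7 and 103 TPM (0.30 ± 0.16, adjusted p = 0.226) and Atf6 26.1, 28.3, 35.1 and 41.8 TPM (0.32 ± 0.17, adjusted p = 0.240). Both were higher in each late library than in each early one, and neither passed the test. Untreated cells had 34.5 TPM of Xbp1, below all 4 Tg libraries.

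Genes downstream of ATF4 and CHOP rose in part and stayed low beside WT MEFs under Tg. Of 22 such genes 5 rose and 0 fell (median 0.45), namely Atf4, Atf5, Sesn2, Ddit4 and Gpt2. The number that rose was 1, 2, 10 and 5 without the 1, 2, 5 and 8 h library, and 2 after removal of the trend with GC content that is described further on. Atf4 had 25.1 and 34.2 TPM early and 60.2 and 58.2 TPM late (0.84 ± 0.22, adjusted p = 0.0312), where WT MEFs under Tg had 487 to 576 TPM. Untreated PERK −/− and WT MEFs had 41.4 and 34.5 TPM of Atf4. Ddit4, a brake on mTORC1, had 11.6, 13.8, 45.5 and 64.4 TPM (1.94 ± 0.28, adjusted p = 0.00301), with 51.1 TPM in untreated cells. In Ddit4 the early libraries were thus the low ones, and the 5 h library lay below untreated cells and the 8 h library above. Ddit3 had 8.28, 14.2, 10.8 and 13.3 TPM, with overlapping sides and a log2 difference of −0.06 ± 0.52 (adjusted p = 0.955) whose sign turned under some scalings. In WT MEFs Ddit3 had 272 to 580 TPM under Tg and 13.8 TPM untreated, and untreated PERK −/− MEFs had 6.91 TPM. Trib3, a target of CHOP, had 3.16, 2.07, 5.30 and 15.5 TPM and missed the threshold (1.83 ± 0.58, adjusted p = 0.0634). The median of the list against the untreated library was −0.67 early and 0.085 late.

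Amino acid synthesis and transport, another group under ATF4, had 26 measured members, of which 8 rose and 2 fell (median 0.46, and 0.92 in WT MEFs). The 1, 2, 5 and 8 h libraries left out in turn, 5, 4, 12 and 10 rose. Slc3a2, the heavy chain shared by several amino acid exchangers, had 267 and 202 TPM early and 478 and 1123 TPM late (1.57 ± 0.26, adjusted p = 0.00521). The glycine transporter Slc6a9 had 6.19, 6.52, 23.6 and 50 TPM (2.36 ± 0.30, adjusted p = 0.00210). In both the 8 h library stood highest and well above that of 5 h. Aldh1l2, a mitochondrial enzyme of folate metabolism, and the neutral amino acid transporter Slc1a4 rose by 1.61 ± 0.35 and 1.14 ± 0.27. The members that fell were Shmt1 (49.7, 43.9, 34.1 and 26.1 TPM) and Mthfd1 (73.9, 68.9, 56.0 and 49.2 TPM), cytosolic enzymes of folate metabolism. Of 20 aminoacyl-tRNA synthetases, which charge tRNAs, Aars rose (0.55 ± 0.16) and Farsb, Dars and Rars fell (by 0.74 ± 0.15, 0.72 ± 0.17 and 0.64 ± 0.16). Their median was −0.083, turned to 0.027 when scaled by library totals, and stood at 0.52 in WT MEFs. The number of synthetases that fell was 2, 0, 4 and 4 without the 1, 2, 5 and 8 h library, and after removal of the trend with GC content 0 rose and 0 fell.

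Sterol and fatty acid synthesis held the largest share of genes that rose among the lists. Of 32 members 25 rose and 0 fell, with a median of 0.98 beside 0.024 over all genes, and 17, 19, 27 and 26 rose without the 1, 2, 5 and 8 h library. Summed over the list, TPM was 4385 and 4579 at 1 and 2 h, 8556 and 11092 at 5 and 8 h and 7278 in untreated cells. In WT MEFs the sums were 4908, 4358, 4034 and 4309 at the same times and 6110 in untreated cells, and the median of the list was −0.21. So in PERK −/− MEFs the sum lay below untreated cells early and above them late. In WT MEFs the 4 Tg libraries lay close together and all below untreated cells. After removal of the trend with GC content 24 rose (median 0.82). The median GC content of the list was 54.2%, against 52.8% over all genes.

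Among the genes of this list, Nsdhl, a demethylating enzyme late in cholesterol synthesis (chrX:72918557-72958514), had 61.5 and 63.0 TPM early and 171 and 202 TPM late (1.43 ± 0.16, adjusted p = 0.00143). Mvk, mevalonate kinase (chr5:114444269-114460591), had 10.1, 8.74, 31.6 and 51.5 TPM (1.97 ± 0.27, adjusted p = 0.00275). Tm7sf2, a sterol reductase (chr19:6062821-6068373), had the widest log2 difference of the list, from 3.33 and 1.78 TPM to 9.54 and 32.1 TPM (2.88 ± 0.52, adjusted p = 0.00776). All 3 were lower in each early library than in each late one, and in untreated cells they had 133, 34 and 19.9 TPM, above the 1 and 2 h libraries. Acss2, which makes acetyl-CoA from acetate, and Dhcr7, the last step to cholesterol, rose by 2.18 ± 0.37 and 1.44 ± 0.20. The regulators of the pathway rose as well. Srebf2, the transcription factor SREBP2, had 64.0, 54.6, 116 and 165 TPM (1.07 ± 0.18, adjusted p = 0.00514) and Insig1, which holds SREBP in the ER, 123, 141, 245 and 335 TPM (0.97 ± 0.18, adjusted p = 0.00776). Scd2, a desaturase that makes monounsaturated fatty acids, had 967 and 892 TPM early and 2366 and 3020 TPM late (1.38 ± 0.16, adjusted p = 0.00203). Hmgcs1, an early enzyme at the entry to the mevalonate pathway (304, 444, 525 and 538 TPM), did not pass the test, with a difference of 0.35 ± 0.20. The order of its libraries followed time and the sides did not overlap.

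Ribosomal proteins went the other way. Of 78 measured cytosolic ribosomal proteins 0 rose and 45 fell, and all 78 had a negative log2 difference with TMM factors (median −0.70). The number that fell was 26, 10, 75 and 49 without the 1, 2, 5 and 8 h library. With library totals 40 fell (median −0.59), and after removal of the trend with GC content 41 (−0.66). In 69 of the 78 both late libraries lay below both early ones in TPM, against 19.6% of all genes. Their summed TPM was 154634 and 159870.0 at 1 and 2 h, 120842 and 94210 at 5 and 8 h and 128622 in untreated cells. The early libraries thus lay above untreated cells and the late ones below. In WT MEFs the sums lay between 119419 and 128486 TPM at these times of Tg, below the 150784 TPM of untreated WT cells. The WT median, late minus early, was −0.006.

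Rpl31, of the large subunit (chr1:39367842-39371911), had 1172 and 1003 TPM early and 588 and 471 TPM late (−1.18 ± 0.18, adjusted p = 0.00337). Rpl30 had 2137, 2628, 1225 and 1122 TPM (−1.17 ± 0.18, adjusted p = 0.00342). In both the late libraries held less than the lowest early value by a wide margin. Rpl38 (3591, 5218, 2704 and 1848 TPM) and Rps23 of the small subunit (2922, 3541, 2118 and 1235 TPM) fell by 1.10 ± 0.24 and 1.09 ± 0.25. Rpl34 was listed at 11.0, 29.9, 0 and 19.2 TPM against 537 to 1564 TPM in WT MEFs, its sides overlapped, and it did not pass the test (adjusted p = 0.445). Ribosomal protein genes have many near-identical processed copies, so counts of single members are uncertain.

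Translation factors followed them. Of 63 measured initiation and elongation factors 0 rose and 14 fell (median −0.40). The number that fell was 11, 6, 37 and 23 without the 1, 2, 5 and 8 h library and 7 after removal of the trend with GC content. Eef1b2, an exchange factor of elongation factor eEF1A, had 1670 and 1721 TPM early and 914 and 625 TPM late (−1.28 ± 0.21, adjusted p = 0.00469). Eef1e1, a scaffold protein of the synthetase complex, had 171, 162, 59.4 and 107 TPM (−1.17 ± 0.23, adjusted p = 0.0109), with its lowest value at 5 h. Eif3j1 was listed at 293, 304, 0 and 176 TPM and did not pass the test (adjusted p = 0.231). It has a near-identical copy, Eif3j2, between which the authors' counting could split reads. Mitochondrial ribosomal proteins, in contrast, had 3 of 77 that fell (Mrpl50, Mrpl41 and Mrpl19) and a median of −0.11, and the number that fell was 1, 0, 14 and 12 without the 1, 2, 5 and 8 h library. Mrpl41 had 60.7, 59.7, 16.9 and 29.2 TPM (−1.55 ± 0.33, adjusted p = 0.0147).

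Early-response transcription factors and secreted growth factors fell in part. Of 25 immediate-early genes 2 rose (Jund and Dusp1) and 7 fell (Fosl1, Klf6, Klf10, Nr4a1, Id1, Id2 and Id3), with a median of −0.55. The 1 h library decided much of this, since without it 1 fell and the median was 0.27. The number that fell was 7, 11 and 13 without the 2, 5 and 8 h library. Fosl1, a partner in AP-1, had 56.6 and 22.8 TPM early and 12.8 and 11.8 TPM late (−1.82 ± 0.38, adjusted p = 0.0146). Id1, an inhibitor of bHLH factors, had 121, 85.6, 35.8 and 37.6 TPM (−1.63 ± 0.25, adjusted p = 0.00401). The orphan receptor Nr4a1 had 17.4, 5.90, 0.46 and 3.29 TPM (−2.78 ± 0.67, adjusted p = 0.0240). The 1 h library was the highest in all 3. Egr1 had 41.1, 2.55, 5.06 and 9.92 TPM, so that its sides overlapped and its difference of −1.67 ± 0.82 (adjusted p = 0.206) became 1.35 without the 1 h library. Dusp1, a phosphatase that switches off MAP kinases, rose from 30.6 and 26.3 TPM to 71.4 and 65.3 TPM (1.12 ± 0.19, adjusted p = 0.00536), and the AP-1 member Jund from 19.7 and 23.3 TPM to 38.5 and 40.4 TPM (0.81 ± 0.23, adjusted p = 0.0414).

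Of 28 measured cytokines and growth factors 2 rose (Tgfb2 and Bmp4) and 7 fell (Ccl2, Ccl7, Csf1, Hbegf, Fgf7, Inhba and Angptl2). The median was −0.61, or −0.53 with a member at 0 on one side set to its bound, and stood at −0.53 in WT MEFs. The number that fell was 2, 6, 10 and 11 without the 1, 2, 5 and 8 h library. Hbegf, a ligand of the EGF receptor, had 166 and 80.7 TPM early and 35.2 and 26.1 TPM late (−2.13 ± 0.31, adjusted p = 0.00317). The chemokine Ccl7 had 90.0, 66.4, 19.3 and 30.6 TPM (−1.80 ± 0.37, adjusted p = 0.0129), and untreated cells had 16.8 TPM. So Ccl7 was high in the early libraries and above the untreated level in all 4, with the 5 h library nearest to it, whereas Hbegf ended below the untreated 149.9 TPM. Fgf7 and Angptl2 fell by 2.18 ± 0.59 and 1.26 ± 0.29. Bmp4 rose by 1.29 ± 0.29, from 9.31 and 6.73 TPM to 22.9 and 20.3 TPM.

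Secreted matrix and matricellular proteins had 33 measured members, of which 1 rose (Sparc) and 7 fell (Thbs1, Fbn1, Loxl3, Ctgf, Cyr61 and Fbln2 among them), and the number that fell was 3, 6, 10 and 8 without the 1, 2, 5 and 8 h library. Ctgf, a matricellular protein that responds to YAP and TGF-β, had 995 and 539 TPM early and 213 and 119 TPM late (−2.34 ± 0.31, adjusted p = 0.00252). Fbln2, a fibulin, had 218, 101, 46.3 and 26.5 TPM (−2.26 ± 0.34, adjusted p = 0.00330). Both fell from each library to the next, with the 8 h value lowest. Cyr61 and Thbs1 fell by 0.97 ± 0.25 and 1.08 ± 0.26. The median of this list was −0.049, and it turned to 0.063 with library totals and to 0.11 without the 1 h library. Of 20 measured collagens 0 rose and 1, Col6a3, fell (14.1, 6.59, 5.29 and 5.09 TPM), and 0, 1, 4 and 4 fell without the 1, 2, 5 and 8 h library.

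The actin cytoskeleton had 7 of 22 measured genes that fell (Actg1, Tagln, Tagln2, Tpm1, Tpm3, Tpm4 and Zyx), 0 that rose and a median of −0.43. The number that fell was 1, 1, 14 and 7 without the 1, 2, 5 and 8 h library. Zyx, zyxin of focal adhesions, had 256 and 200.4 TPM early and 142 and 141 TPM late (−0.84 ± 0.17, adjusted p = 0.0111), and Actg1, a cytoplasmic actin, had 5906, 5041, 3862 and 3055 TPM (−0.80 ± 0.18, adjusted p = 0.0180). Of 21 integrins and growth factor receptors Itga6, Itgav and Igf1r fell and 0 rose (median −0.25), and 1, 4, 8 and 7 fell without the 1, 2, 5 and 8 h library and 1 after removal of the trend with GC content. Itga6 had 24.0, 20.2, 15.3 and 8.65 TPM. The share of integrins and growth factor receptors that passed, 14.3%, was near the 11.7% of all genes.

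Core histones, whose mRNAs belong to dividing cells, gave the least even picture. Of 58 measured genes 11 rose and 1, Hist1h3f, fell (median 0.25), and the median GC content was 66.0%. The number that rose and fell was 11 and 3 without the 1 h library, 7 and 2 without 2 h, 11 and 13 without 5 h and 25 and 6 without 8 h. After removal of the trend with GC content 5 rose, 2 fell and the median was −0.17, and without the 5 h library it was −0.11. Hist1h2af, an H2A gene, had 215 and 160 TPM early and 586 and 516 TPM late (1.42 ± 0.18, adjusted p = 0.00208), and Hist3h2ba, an H2B gene, had 17.7, 17.1, 73.0 and 33.1 TPM (1.47 ± 0.44, adjusted p = 0.0492). Hist1h2bl, an H2B gene, had 0, 0, 344 and 392 expected counts and 0 in untreated cells. This is at least 159-fold higher late than early against a floor of 3 counts per library. WT MEFs had 900 to 1923 TPM of it under Tg and 465 TPM untreated. Hist1h3h had 0, 0, 1053 and 0 counts and so overlapped between the sides, although it passed the test. Untreated cells had 963 counts of Hist1h3h, and WT MEFs had 242 TPM untreated and 0 at each time of Tg. Hist1h2bc went the other way at 5 h, with 1175, 1250, 32.9 and 923 TPM, and did not pass (adjusted p = 0.244). Core histone genes are near-identical copies between which the counting could split reads. The single values at 5 h and the values of 0 at other times, those of Hist1h2bl included, are uncertain for this reason.

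Of 27 measured lysosomal genes, whose products digest material taken up or recycled by the cell, 9 rose and 0 fell (median 0.41, and 0.008 in WT MEFs), and 4, 1, 15 and 8 rose without the 1, 2, 5 and 8 h library. Mcoln1, the calcium channel of the lysosome membrane, had 15.2 and 14.9 TPM early and 33.3 and 40.9 TPM late (1.15 ± 0.19, adjusted p = 0.00562). Neu1, a sialidase, had 19.4, 14.7, 45.5 and 36.0 TPM (1.12 ± 0.24, adjusted p = 0.0156), and its partner Ctsa had 179, 147, 266 and 369 TPM (0.81 ± 0.18, adjusted p = 0.0161). The early libraries lay below untreated cells in all 3. Against the untreated library the median of the lysosomal list was −0.55 early and −0.089 late.

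Of 18 genes of the NRF2 and antioxidant response 5 rose (Hmox1, Srxn1, Slc7a11, Gsta4 and Gstm1) and 1 fell (Txnrd1), with a median of 0.40, and 1, 2, 9 and 6 rose without the 1, 2, 5 and 8 h library and 3 after removal of the trend with GC content. Srxn1, sulfiredoxin, had 12, 14.8, 25.6 and 73.8 TPM (1.71 ± 0.45, adjusted p = 0.0329), and Gsta4, a glutathione transferase, had 3.91, 6.66, 17.3 and 35.8 TPM (2.13 ± 0.47, adjusted p = 0.0170). Both were highest at 8 h. Of 16 cytosolic heat shock genes Hspa1b rose, and Hspa4, Hspd1 and Hspe1 fell, the latter pair being chaperones of the mitochondrial matrix. Hspa1b had 33.0, 43.1, 141 and 165 TPM (1.85 ± 0.18, adjusted p = 0.00123) and has a near-identical copy, Hspa1a. Hspd1 had 1046, 1103, 732 and 588 TPM (−0.85 ± 0.18, adjusted p = 0.0146). The number of heat shock genes that fell was 2, 0, 7 and 6 without the 1, 2, 5 and 8 h library, and 0 after removal of the trend with GC content, where 2 rose.

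Of 18 G1 cyclins, their kinases and inhibitors 3 rose (Cdkn1c, Cdkn2a and Ccng2) and 2 fell (Ccnd1 and Cdk6). The number that rose was 2, 1, 5 and 7 without the 1, 2, 5 and 8 h library, and 0, 1, 2 and 2 fell, while 1 rose and 2 fell after removal of the trend with GC content. Ccng2, a cyclin found in cells that leave the cycle, had 12.6 and 10.6 TPM early and 37.6 and 47.1 TPM late (1.71 ± 0.24, adjusted p = 0.00301). Cdk6, a kinase that drives entry to S phase, had 22.5, 20.2, 8.58 and 6.31 TPM (−1.66 ± 0.32, adjusted p = 0.0104), and its partner Ccnd1 fell by 1.11 ± 0.26. Of 26 DNA replication genes 0 rose and 4 fell, Orc6, Ccne1 and Ccne2 among them, and 3, 1, 7 and 4 fell without the 1, 2, 5 and 8 h library and 1 after removal of the trend with GC content. Ccne1, a cyclin of S phase entry, had 32.1, 32.7, 10.2 and 19.7 TPM (−1.28 ± 0.28, adjusted p = 0.0173). The share that passed either way was 15.4% of DNA replication and 12.5% of mitosis genes, near the 11.7% of all genes. Of 24 mitosis genes 3 rose (Plk1, Cdc20 and Nek2, each by 0.58 to 0.61) and 0 fell, and 0, 0, 2 and 8 rose without the 1, 2, 5 and 8 h library.

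In the remaining lists few genes passed in number. The share that passed was 33.3% of the IRE1 list, 14.3% of glycolysis, 12.5% of interferon and 11.1% of cell death genes. It was 3.95% or less in the others, against 11.7% of all genes. Of 21 glycolysis genes Slc2a1 and Pfkl rose and Hk2 fell, where the glucose transporter Slc2a1 had 96.9, 73.0, 156 and 270 TPM (1.17 ± 0.22, adjusted p = 0.00976) and the hexokinase Hk2 28.8, 23.6, 13.2 and 9.95 TPM (−1.31 ± 0.21, adjusted p = 0.00452). Of 16 interferon response genes Isg15 and Ifit1 rose and 0 fell (median 0.51), and Ifit1 had 4.45, 5.95, 12.6 and 28.4 TPM (1.79 ± 0.37, adjusted p = 0.0146). Summed over the interferon list, TPM was 689 in untreated cells, 332 and 332 at 1 and 2 h, and 491 and 566 at 5 and 8 h. The late sums thus lay above the early ones and below untreated cells. Of 9 mRNAs that IRE1 is known to cut, Pmp22, Sparc and Pdia4 rose and 0 fell, and Pmp22, a myelin membrane protein, had 97.9, 70.4, 206 and 306 TPM (1.32 ± 0.19, adjusted p = 0.00301). Against the untreated library the median of the IRE1 list was −0.51 early and −0.076 late. Oxidative phosphorylation had 2 of 76 that rose (Cox6a1 and Uqcrq) and 1 that fell (Uqcrb), the proteasome 1 of 37 that fell (Psmd7), cell death genes 1 of 18 that rose (Bax) and 1 that fell (Bcl2l1), and C2H2 zinc fingers 1 of 228 that rose and 4 that fell. Leaving out the 1, 2, 5 or 8 h library, 1, 1, 4 and 3 glycolysis genes rose, 1, 1, 5 and 6 interferon genes, and 1, 1, 4 and 4 of the IRE1 list. In the same order 0, 0, 8 and 9 genes of oxidative phosphorylation rose, 0, 0, 10 and 2 of the proteasome fell, 0, 0, 5 and 4 cell death genes fell, and 0, 1, 20 and 37 zinc fingers fell. None of the 13 measured genes of calcium stores passed edgeR's test, and without the 5 or 8 h library 2 and 1 rose. After removal of the trend with GC content 1 glycolysis gene rose and 1 fell, 1 interferon gene and 2 of the IRE1 list rose, 0 genes of oxidative phosphorylation and of the proteasome passed, 0 cell death genes rose and 2 fell, and 2 zinc fingers fell.

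**Figure D3:**
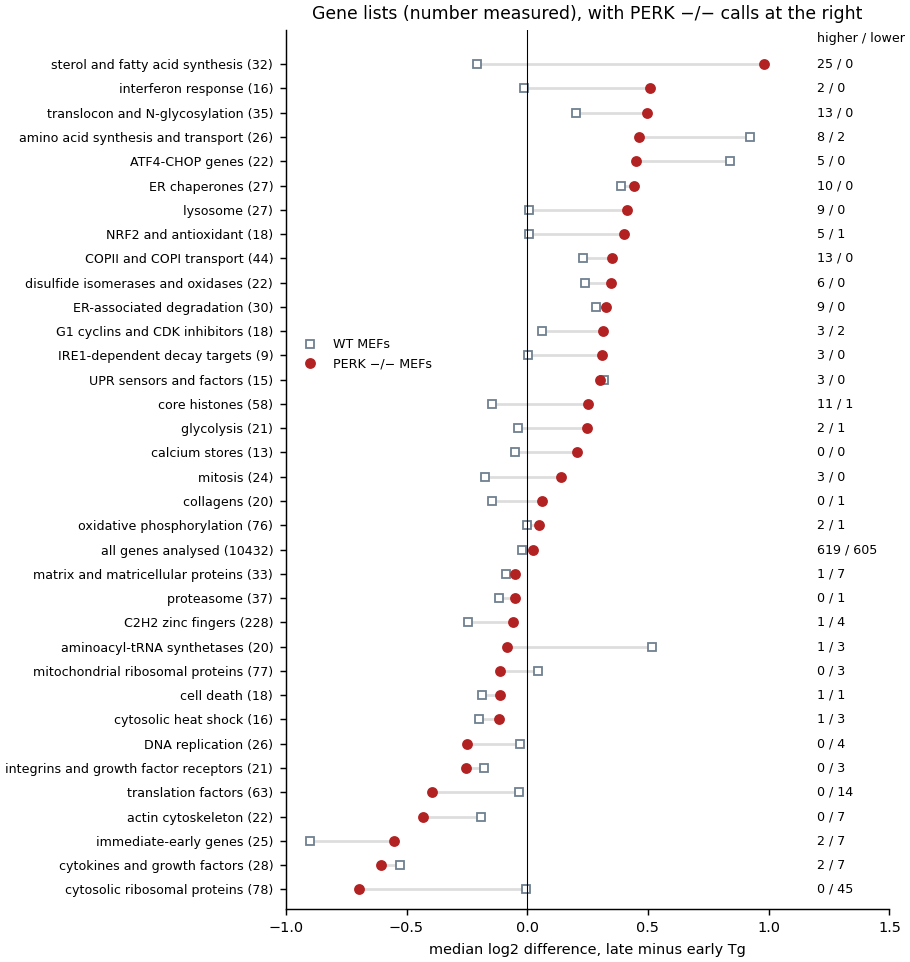
Median log2 difference, late minus early, of the measured genes of each list, with PERK −/− MEFs as filled circles and WT MEFs as open squares, and the numbers of genes that rose and fell in PERK −/− MEFs at the right. Sterol and fatty acid synthesis (0.98) and cytosolic ribosomal proteins (−0.70) lie farthest from all genes (0.024) on either side, and in WT MEFs they have −0.21 and −0.006.

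The genes with the widest change among those that passed, with at least 50 counts on average and no overlap, reached across many functions. Beside Hist1h2bl, Tm7sf2, Slc6a9 and Acss2, the widest rises were those of Mettl7a1, Mrgprf, Slc2a6, Yipf2, Hid1 and Prss35. Mrgprf, an orphan receptor, had 7.87 and 10.2 TPM early and 50.1 and 91.1 TPM late (2.80 ± 0.29, adjusted p = 0.00123). Mettl7a1, a methyltransferase-like protein of the ER and lipid droplets, had 2.20, 1.93, 17.8 and 27.0 TPM (3.24 ± 0.49, adjusted p = 0.00336). Hid1, a Golgi protein of secretory granules, had 3.67, 3.72, 15.5 and 22.8 TPM (2.25 ± 0.28, adjusted p = 0.00203). In each of them the early libraries were close together and the 8 h library was the highest. Slc2a6, a hexose transporter of the lysosome, Yipf2, a Golgi membrane protein, and Prss35 rose by 2.53 ± 0.41, 2.31 ± 0.41 and 2.20 ± 0.34.

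The widest falls were those of Gm29808, Has2, Rgs16, Nr4a1, Ccbe1, Rftn1, Rcan1, Ermard, Ctgf and Gjb2. Has2, which makes hyaluronan, had 82.9 and 30.9 TPM early and 8.10 and 4.54 TPM late (−3.28 ± 0.42, adjusted p = 0.00208). Rcan1, an inhibitor of the calcium-dependent phosphatase calcineurin and itself a target of its signalling, had 248 and 169 TPM early and 42.6 and 39.6 TPM late (−2.46 ± 0.20, adjusted p = 0.00033). Rgs16, which ends G protein signals, had 28.1, 9.43, 3.27 and 2.42 TPM (−2.83 ± 0.63, adjusted p = 0.0182). Untreated cells had 37.4, 31.1 and 10.7 TPM of these 3 genes, so that the 1 h library lay above untreated cells in each and the late libraries of Rcan1 came close to them. Gjb2, a connexin, had 134, 106, 39.0 and 14.8 TPM (−2.28 ± 0.36, adjusted p = 0.00409). Ccbe1, a secreted protein, and Rftn1, raftlin, fell by 2.53 ± 0.29 and 2.49 ± 0.51, and Ermard by 2.36 ± 0.46. Gm29808, a predicted gene, had 68, 130, 7 and 2 counts.

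Between 5 and 8 h the genes that passed moved less than genes at large, which the test itself favours, since the difference between these libraries is part of its spread. Over all 10432 genes, 24.9% were at least 1.5-fold apart between 5 and 8 h, against 13.6% of those that passed. In TPM with values under 4 raised to 4, 720 genes were at least 2-fold apart between 5 and 8 h and 104 between 1 and 2 h. Of the 619 that rose, 59 were at least 1.5-fold further from the early side at 8 h than at 5 h, 26 had gone back by as much and 534 lay between. Of the 605 that fell, 61 were further, 20 had gone back and 524 lay between. The untreated library, a single one and no part of the test, lay between the early and late sides for 409 of the genes that rose and 421 of those that fell. It lay at or beyond the early side for 93 and 95 and at or beyond the late side for 117 and 89. Counted by the nearer side, it was closer to late for 315 of the genes that rose and 321 of those that fell, and closer to early for 304 and 284. So for many genes the early libraries were those farther from untreated cells.

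**Figure D4:**
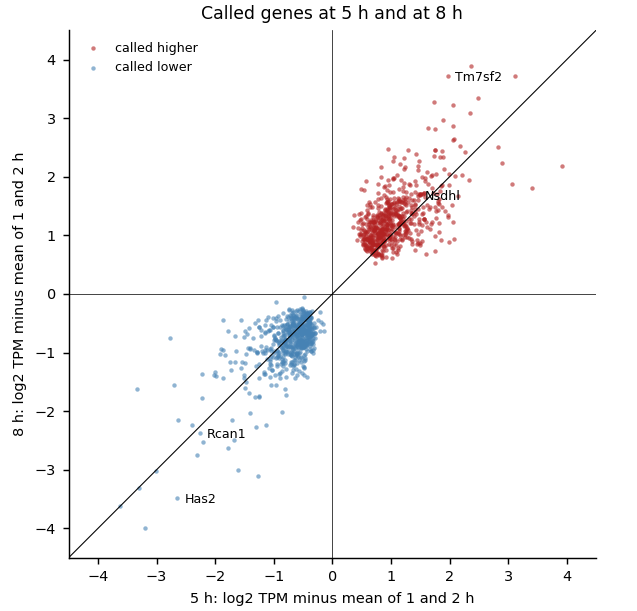
Each point is a gene that rose (red) or fell (blue), with its log2 TPM at 5 h on the x axis and at 8 h on the y axis, both minus the mean of 1 and 2 h, and the line marks equal values. Genes far from the line were less likely to pass the test, which sets the change against the difference of 5 and 8 h. Tm7sf2 and Has2 are further at 8 h, and 2 genes lie outside the axes.

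Whether the change over time differed between PERK −/− and WT MEFs was tested as an interaction in the 8 Tg libraries. The WT libraries of 1, 2, 5 and 8 h held 3609292, 2525029, 5617552 and 11178364 expected counts. The early WT pair was thus shallower than any PERK −/− Tg library. The change differed for 52 genes (0.498%), above that of WT for 27 (0.259%) and below it for 25 (0.240%). All 52 also passed in PERK −/− MEFs and in the same direction. The counts rested on single libraries. Above and below WT they were 0 and 0 without the PERK −/− 1 or 2 h library (edgeR, with 932 and 751 genes, and 740 and 624 genes, at an unadjusted p under 0.05), 362 and 410 without 5 h and 269 and 364 without 8 h. Without the WT library of 1, 2, 5 or 8 h they were 2, 220, 1 and 1 above and 0, 151, 0 and 0 below. DESeq2 gave 221 and 238, and edgeR with time as a block 76 and 46.

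Above WT stood 9 of the 32 sterol and fatty acid genes, among them Nsdhl (2.19 ± 0.23, adjusted p = 0.00858), Mvk (1.85 ± 0.34, adjusted p = 0.0481), Msmo1 (1.63 ± 0.18, adjusted p = 0.0122), Lss (1.54 ± 0.19, adjusted p = 0.0208), Insig1, Scd1, Scd2, Srebf2 and Fdps (1.15 to 1.38). In WT MEFs Nsdhl had 93.0, 68.5, 49.4 and 49.4 TPM at 1, 2, 5 and 8 h. The late libraries were thus the low ones there and the high ones in PERK −/− MEFs. The WT change of Nsdhl by itself did not pass edgeR's test (−0.77 ± 0.16, adjusted p = 0.123). Msmo1 and Lss, an oxidase and a cyclase of cholesterol synthesis, had 242 and 46.5 TPM at 5 h in WT MEFs and 856 and 88.5 TPM in PERK −/− MEFs. Outside that list, Synpo, an actin-binding protein, had 4.12, 4.15, 15.2 and 15.1 TPM in PERK −/− and 5.94, 3.90, 1.94 and 2.78 TPM in WT MEFs (difference of changes 2.74 ± 0.36, adjusted p = 0.0258). Mrgprf, Ccng2 and Dusp1 followed with 3.03 ± 0.50, 2.31 ± 0.36 and 2.02 ± 0.35. Hist1h2bl also passed, with a fitted value of 11.6 that depends on the prior count.

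Below WT stood Atad3a, an ATPase of the mitochondrial membrane, with 50.8, 44.8, 21.5 and 24.6 TPM in PERK −/− and 33.7, 44.9, 49.6 and 55.0 TPM in WT MEFs (−1.62 ± 0.22, adjusted p = 0.0258). The early libraries were the high ones in PERK −/− MEFs and the low ones in WT MEFs. Gpatch4, a nucleolar protein, had 30.6, 29.8, 6.50 and 8.85 TPM in PERK −/− and 32.6, 22.6, 23.2 and 21.9 TPM in WT MEFs (−1.78 ± 0.31, adjusted p = 0.0428). Rcan1, the decoy receptor Tnfrsf11b and the RNA polymerase III subunit Polr3e had −1.75 ± 0.25, −1.75 ± 0.27 and −1.70 ± 0.29. Of the ribosomal proteins 3 of 78 passed, Rpl31 (−1.38 ± 0.22, adjusted p = 0.0428), Rps12 (−1.03 ± 0.18) and Rpl13a (−1.01 ± 0.19). No ER chaperone, ERAD or translocon gene passed this test. The difference for Hspa5 was −0.26 ± 0.30 and for Syvn1 0.30 ± 0.30.

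**Figure D5:**
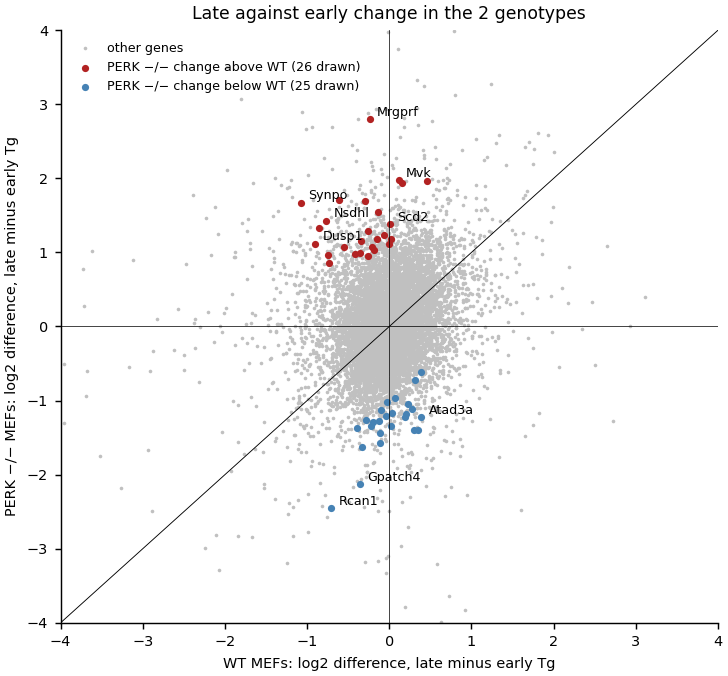
Each point is a gene, with its log2 difference, late minus early, in WT MEFs on the x axis and in PERK −/− MEFs on the y axis, and the line marks equal change. The 26 drawn genes above WT (red) and 25 below (blue) lie apart from the line on either side, and 43 genes, Hist1h2bl among them, lie outside the axes.

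The genes that rose and fell differed in their coding sequences. Median GC content was 56.3% in 605 genes that rose, 48.4% in 598 that fell and 52.8% in all 10244 with a coding sequence. Across these genes the Spearman correlation of GC content with the log2 difference was 0.34. The genes share their libraries and are not independent. Against the untreated library the correlation was −0.403 and −0.513 in the early libraries (1 and 2 h) and −0.092 and −0.015 in the late ones (5 and 8 h), so the trend lay on the early side. With this trend removed from each library, 465 genes were higher and 401 lower late, of which 378 and 328 were among those called with it. The part of library preparation in this trend was not tested. Coding length was alike, with medians of 1335 and 1348.5 bases against 1359 over all.

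Hydrophobic stretches predicted from the coding sequence were more frequent among the genes that rose. A stretch long enough to span a membrane (19 residues, mean hydropathy on the Kyte-Doolittle scale 1.6 or more) was searched after the first 30 residues. It was found in the protein of 54.0% of the genes that rose, 15.7% of those that fell and 26.2% of all. This is a match of the sequence and no annotation of membrane proteins, as Mvk and Ccne1 matched and Herpud1 did not. Of genes with such a stretch 12.2% rose, against 3.68% of those without, and their median log2 difference was 0.20, against −0.033. A hydrophobic stretch within the first 30 residues, as signal peptides have, was found in 28.9%, 12.2% and 16.7%. The medians with and without a membrane stretch were 0.21 and −0.006 after removal of the trend with GC content, and −0.015 and −0.024 in WT MEFs.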

How the data were processed

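Ribosome footprints were prepared from trypsinized, frozen cells without cycloheximide. The authors retained footprints of 22 to 34 nt, discarded rRNA and tRNA reads (STAR) and mapped the remainder (Bowtie2) to mm10 RefSeq coding sequences shortened by 30 nt at either end. Tools are named in the submitters' processing notes, and their versions are not given in the sources used here. RSEM then gave the expected counts and the TPM values that the authors deposited. Expected counts are unscaled, and TPM is scaled within a library. Clipping makes very short genes imprecise, and 25 symbols had become dates. The 3 NIH3T3 libraries were not used here.

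Rounded expected counts entered edgeR 4.0.16 (R 4.3.3) with TMM factors, the quasi-likelihood test and Benjamini-Hochberg adjustment over 10432 genes. The labels do not say that libraries come from separate cultures. Alternatives used DESeq2 1.42.0, limma 3.58.1 on log2(TPM + 1), other scalings, filters, floors and left-out libraries. A lowess fit (fraction 0.3) of each library to GC content, removed as an offset, was chosen after seeing the data. The fits were also run on simulated counts with independent replicates, the same spread for all genes and no trend with time or GC content. Sides here are neighbouring times, so this run checks the code and not the calls. Lists were written from general knowledge, and the members and lists were chosen with earlier results of these data known. Named were the 10 widest changes each way (at least 50 counts on average, no overlap), the genes the paper names, up to 5 members of each list by size of change, and the 5 widest genotype differences each way. Creb3, Jund, Dusp1, Shmt1, Mthfd1, Hmgcs1, Insig1, Srebf2, Lss, Msmo1, Fdps, Scd1, Scd2, Rps12, Rpl13a, Utp18, Nop56 and Polr1b and members listed without values were named after their values were seen. Some genes are counted in their lists and not reported here by name. Coding sequences and gene positions came from GENCODE vM21 (GRCm38, the same assembly as mm10; 98.2% of genes matched), promoters from RefSeq (GRCm38.p6). Tables and figures were made with pandas 2.3.3, numpy 2.4.6, scipy 1.17.1, Biopython 1.88 and matplotlib 3.10.9 in Python 3.11.15.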

Additional observations from a re-analysis of the deposited data

Results flagged for a closer look

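In the results below, the change from early to late Tg differed between the genotypes by the interaction test. The log2 change in PERK −/− MEFs lay above that of WT MEFs for 27 genes and below it for 25. Among sterol and fatty acid genes the difference of the changes (log2, PERK −/− minus WT) was 2.19 for Nsdhl, 1.85 for Mvk, 1.63 for Msmo1, 1.54 for Lss, 1.38 for Insig1, 1.36 for Scd2, 1.29 for Scd1, 1.27 for Srebf2 and 1.15 for Fdps. Other genes above WT were Mrgprf with 3.03, Synpo with 2.74, Ccng2 with 2.31 and Dusp1 with 2.02. Hist1h2bl had a fitted value of 11.6, which depends on the prior count since both early PERK −/− libraries had 0 counts. Below WT were Gpatch4 with −1.78, Rcan1 with −1.75, Tnfrsf11b with −1.75, Polr3e with −1.70 and Atad3a with −1.62. Ribosomal proteins below WT were Rpl31 with −1.38, Rps12 with −1.03 and Rpl13a with −1.01. Genes of ribosome assembly below WT were Utp18 with −1.15, Polr1b with −1.09 and Nop56 with −1.03.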

How the results depend on the processing

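The labels give no replicate numbers, and no paired analysis of PERK −/− MEFs alone was possible because no library shares its time with another. With hours of Tg as a replicate block across the genotypes, chosen after seeing the data, genotype differences (27 and 25) were 76 and 46, of which 26 and 25 were among those called without it, and libraries of the same time deviated from their group with correlations of −0.002 and 0.015. Counts of genes that rose and fell in PERK −/− MEFs (619 and 605) were 892 and 995 without a limit on TPM, 465 and 401 without the GC trend, and 1007 and 999 with the spread of all 8 Tg libraries. With limma on log2(TPM + 1) they were 1 and 0, with 2015 and 776 at an unadjusted p under 0.05, and with DESeq2 682 and 744. With libraries left out in turn they ranged from 183 (without 2 h) to 1529 (without 5 h) and from 206 to 1624, with 274 and 281 without 1 h and 1392 and 1536 without 8 h, where the lone library of a side is assumed to vary like the others. Genes at least 2-fold apart in TPM (619 and 147) were 949 and 266 with a floor of 1, 719 and 225 with log2(TPM + 1), 76 and 27 at 3-fold, 395 and 263 with CPM after TMM scaling, and 566 to 986 and 163 to 294 with libraries left out. Genotype differences (27 and 25) were 68 and 34 with library totals, 54 and 52 at a mean TPM of at least 5, 139 and 232 without a limit, 221 and 238 with DESeq2, 3 and 0 with limma (1282 and 610 at an unadjusted p under 0.05), and 0 to 362 and 0 to 410 with libraries left out. The cause of these moves was not tested. Medians of lists that turned were those of aminoacyl-tRNA synthetases (0.027, library totals), the proteasome (0.063, library totals), the matrix (0.063, library totals), zinc fingers (0.058 with library totals, 0.086 without the GC trend), core histones (−0.167 without the GC trend) and collagens (−0.162 without the GC trend). With libraries left out, medians ranged from −0.911 (without 2 h) to 0.268 (without 1 h) for immediate-early genes, −0.106 (5 h) to 0.359 (8 h) for core histones, −0.229 (8 h) to 0.025 (2 h) for cell death, −0.051 (2 h) to 0.301 (1 h) for collagens, −0.174 (2 h) to 0.11 (1 h) for the matrix and −0.199 (8 h) to 0.043 (2 h) for zinc fingers. Ddit3 turned to 0.057 with library totals and 0.134 with limma and ranged from −0.392 (without 1 h) to 0.39 (without 2 h), Egr1 from −2.588 (2 h) to 1.349 (1 h), and Hist1h3h, whose fitted value depends on the prior count, from 0 (5 h) to 13.419 (8 h). Of 147 named genes 48 and 47 lost their call without the 1 and 2 h library, 2 and 3 without 5 and 8 h, 133 with limma and 25 without the GC trend. The latter were Rnf5, Creb3, Sesn2, Gpt2, Aars, Farsb, Dars, Rars, Klf10, Jund, Fgf7, Hist1h3h, Hist3h2ba, Neu1, Srxn1, Hmox1, Hspd1, Hspa4, Isg15, Cdkn1c, Plk1, Cdc20, Itga6, Cox6a1 and Psmd7. Depth limits genes of few counts most, and no interval beyond the standard errors was made.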

Other observations

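Genes whose symbols begin with Utp, Rrp, Nop, Noc or Polr1, which act in the making of ribosomes in the nucleolus, were looked at after their values were seen. Of 27 such genes 11 fell and 0 rose late in PERK −/− MEFs (beside 5.80% of all genes that fell), with a median log2 difference of −0.52 and −0.11 in WT MEFs. The number that fell was 10, 7, 21 and 13 without the 1, 2, 5 and 8 h library. Utp18, a part of the complex that processes the small subunit rRNA, had 84.4 and 91.6 TPM early and 39.5 and 43.8 TPM late (−1.27 ± 0.16, adjusted p = 0.00203). Nop56, a core protein of the particles that methylate rRNA, had 246, 196, 113 and 113 TPM (−1.13 ± 0.16, adjusted p = 0.00301). Polr1b, the second largest subunit of RNA polymerase I, had 25.7, 21.3, 12.5 and 11.0 TPM (−1.28 ± 0.17, adjusted p = 0.00252). In all 3 genes the late libraries lay well below the early ones, while in WT MEFs the 4 values of each lay close together, at 70.7 to 76.3, 333 to 372 and 30.3 to 35.9 TPM.

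The core of the sterol regulatory element as searched here (TCACNCCAC, both strands, added after the values were seen) was found in 117 of 8417 promoters (1.39%), in 5 of 494 genes that rose (1.01%) and in 1 of 477 that fell (0.21%). Of the sterol and fatty acid list, Hmgcs1 held it.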
